A study of Mus musculus with 6 samples.

Results

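Sox genes encode transcription factors that bind DNA through an HMG box related to that of Sry, the testis-determining factor. Sox1, Sox2, Sox3, Sox4, Sox5, Sox8, Sox9, Sox10, Sox11 and Sox21 were followed here, 10 of the 20656 genes that could be named on the arrays. They were chosen by name, with every non-control probe whose printed accession belongs to one of them, which gave 15 of the 39409 probes. Sox1, Sox4, Sox5, Sox11 and Sox21 had 2 probes each and the other 5 genes had 1. Members of the family fall into groups by the similarity of their HMG box. SOXB1 factors (Sox1, Sox2 and Sox3) keep neural progenitors undifferentiated, and the SOXB2 factor Sox21 counteracts them. SOXC factors (Sox4 and Sox11) act in newly born neurons, where they switch on neuronal genes, and they are also expressed in embryonic mesenchyme. The SOXD factor Sox5 works with Sox6 in cartilage and is needed in deep-layer cortical neurons. SOXE factors (Sox8, Sox9 and Sox10) act in the neural crest and in glia, and Sox9 is also the master factor of cartilage.

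The study followed mouse embryonic fibroblasts that were being turned into neurons with Tet3, the dioxygenase that oxidises 5-methylcytosine. By their labels, 4 arrays held fibroblasts induced with Tet3 and taken at 1, 3, 5 and 7 dpi (called the dpi arrays here), primary neurons labelled E13.5 were profiled as the neuronal cell type, and MEF, the fibroblasts of E13.5 ICR embryos, were the starting cells. Each of these 6 groups was 1 single-colour Agilent array, so there were no replicates, no test between groups was possible, and every difference describes a pair of arrays. Per the labels' protocols the fibroblasts received adenoviral supernatants with polybrene for 8 hours on each of 2 days, and part of the medium was exchanged for neuronal medium with 20 µM forskolin on day 3 and on day 5 after the second infection. Whether the cells of 3 and 5 dpi were taken before or after the exchange of that day, and from which infection dpi is counted, the labels do not say. No array of fibroblasts given a virus without Tet3 was analysed here, so infection, medium and Tet3 cannot be told apart. The promoter that drove Tet3 and the purity of the neuron culture are not given in the sources used here.

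Levels are given as log2 of the spot signal over the 75th percentile of the array, so 0 is the level of a probe at that percentile, and they are compared only within a probe. The error quoted for a difference is 1 SD from the scanner software's error model. It was 0.20 for bright Sox probes and covers the array only, not the spread between cultures. A difference is a lower bound, written "at least", where just 1 of a pair of arrays read the probe well above background. MEF and 1 dpi were read in the same scan and the other 4 arrays in another, so in comparisons of 3, 5 and 7 dpi or neurons with MEF the scan and the condition cannot be told apart. Signal at the 75th percentile ranged from 1648 to 2416, between 72.9% and 86.1% of probes were well above background, and no probe was saturated. Tet3 itself, by its brightest probe, stood 2.56-fold, 3.89-fold and 6.94-fold over MEF at 1, 3 and 5 dpi, but only 1.23-fold with the 7 dpi label. A second, dim Tet3 probe lay within 1.37-fold of MEF on all 4 dpi arrays. The remaining Tet3 probe stayed at background in MEF and with the 7 dpi label, and was higher than MEF by at least 24.3-fold, 44.1-fold and 116-fold at 1, 3 and 5 dpi. With the 7 dpi label the brightest Tet3 probe was thus near MEF and the remaining probe at background. For this reason values of that array are given as those with the 7 dpi label. Why Tet3 was low there was not tested. The summed signal of 13 neuron markers, in units of the 75th percentile, was 24.0 on that array and 11.1 at 5 dpi. In bulk RNA, fewer cells of a type and less RNA per cell cannot be told apart.

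Because Tet3 acts on methylated CG dinucleotides, the promoter sequences of the members are shown with each CG in capitals. RefSeq promoters (build GRCm38.p6, 250 bases before to 50 after the start) were matched for 7 of the 10 members, with none matched for Sox3, Sox9 and Sox10. The 4 printed are those of the members at least 2-fold different from MEF at 5 dpi (Sox2, Sox8 and Sox11) and of the member with the fewest CG (Sox5). Positions are chr3:34649745-34650044 on the plus strand for Sox2, and on the minus strand chr17:25570637-25570936 for Sox8, chr12:27342669-27342968 for Sox11 and chr6:143947057-143947356 for Sox5.
Sox2: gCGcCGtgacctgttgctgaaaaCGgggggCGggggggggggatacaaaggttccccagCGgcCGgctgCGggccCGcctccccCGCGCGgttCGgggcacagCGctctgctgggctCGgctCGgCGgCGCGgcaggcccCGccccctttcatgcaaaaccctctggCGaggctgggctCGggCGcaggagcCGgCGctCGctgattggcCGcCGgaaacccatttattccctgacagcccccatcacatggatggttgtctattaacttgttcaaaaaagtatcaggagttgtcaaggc
Sox8: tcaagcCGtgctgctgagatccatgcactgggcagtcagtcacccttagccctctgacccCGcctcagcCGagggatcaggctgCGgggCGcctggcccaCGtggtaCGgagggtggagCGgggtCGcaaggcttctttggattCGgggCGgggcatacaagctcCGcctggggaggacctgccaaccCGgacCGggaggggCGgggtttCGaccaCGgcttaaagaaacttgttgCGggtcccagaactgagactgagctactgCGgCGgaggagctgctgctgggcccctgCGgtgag
Sox11: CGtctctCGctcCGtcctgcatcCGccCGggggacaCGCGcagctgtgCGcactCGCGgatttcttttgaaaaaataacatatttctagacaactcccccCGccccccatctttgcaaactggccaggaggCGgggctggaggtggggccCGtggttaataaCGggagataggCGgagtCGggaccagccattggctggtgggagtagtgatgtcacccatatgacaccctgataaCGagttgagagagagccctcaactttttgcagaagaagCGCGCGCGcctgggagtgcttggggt
Sox5: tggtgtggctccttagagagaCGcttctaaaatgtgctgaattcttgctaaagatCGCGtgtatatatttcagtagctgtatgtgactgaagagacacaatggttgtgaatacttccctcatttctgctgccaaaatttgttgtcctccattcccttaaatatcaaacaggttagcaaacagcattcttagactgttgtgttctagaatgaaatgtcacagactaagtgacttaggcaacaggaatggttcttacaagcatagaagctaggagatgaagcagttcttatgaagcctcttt
The CG count was 27 for Sox2, 21 for Sox8, 21 for Sox11 and 3 for Sox5. Among the members not printed it was 37 for Sox1, 22 for Sox21 and 12 for Sox4, and the median of all 32851 promoters was 7. The core SOX motif ACAAT, whose letters hold no CG and which was searched on both strands, was found in 1 of the 7 member promoters, that of Sox5, and in 31.0% of all promoters. Every matched member promoter except that of Sox5 had more CG than the median of all promoters. No methylation was measured on these arrays.

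Sox2, the SOXB1 factor that marks neural stem cells and is one of the pluripotency factors, had a level of -5.53 in MEF, -4.61, -4.67 and -8.73 at 1, 3 and 5 dpi, -8.22 with the 7 dpi label and 1.71 in neurons. The probe was not well above background at 5 dpi or with the 7 dpi label, and well above it on the other 4 arrays. Sox2 was therefore faint in MEF, not detected at 5 dpi or with the 7 dpi label, and high in neurons. Against MEF, it was 0.92 ± 0.29 higher on the log2 scale at 1 dpi and 0.86 ± 0.27 higher at 3 dpi (error of the array), both under 2-fold. At 5 dpi it was at least 2.71-fold lower than in MEF, and with the 7 dpi label at least 1.54-fold lower, where its gap to MEF was within the 95% limit of the array error. Within the same scan, 5 dpi was at least 4.92-fold lower than 3 dpi. Both 5 dpi calls were lost after normexp background correction, at -0.39 against MEF and -0.72 against 3 dpi on the log2 scale. Neurons were 151-fold higher than MEF (7.24 on the log2 scale, and 5.69 after normexp), the largest difference among members measured on both arrays.

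Sox3, another SOXB1 factor of neural progenitors, was not well above background in MEF (-8.89), at 1 dpi (-8.36) or at 3 dpi (-7.25). It was just above background at 5 dpi (-6.56) and with the 7 dpi label (-5.96), and far above it in neurons (-0.91). Levels at 5 dpi and with the 7 dpi label bounded the difference from MEF at only 1.03-fold and 1.56-fold. Neurons were at least 51.8-fold higher than MEF, a bound of 5.70 on the log2 scale that became 4.12 after normexp and 4.85 after quantile normalization.

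Sox1, the SOXB1 factor that appears as cells commit to the neural plate, had levels of -1.16 in MEF, -0.58, -0.35 and -0.19 at 1, 3 and 5 dpi, -0.20 with the 7 dpi label and 0.57 in neurons on its brighter probe. MEF were lowest and neurons highest, each separated from its neighbour by more than the 95% limit of the array error, whereas 3 dpi, 5 dpi and the array labelled 7 dpi were not separated from one another. No dpi array reached a 2-fold difference from MEF, and neurons were 3.31-fold higher. The dimmer probe lay between -4.38 (neurons) and -5.38 (MEF), with no neighbours separated. On that probe neurons were 2.01-fold higher than MEF.

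Sox21, the SOXB2 factor that promotes neuronal differentiation by opposing Sox1, Sox2 and Sox3, gave different sizes on its 2 probes. The brighter probe read -2.68 in MEF, -2.42, -2.0 and -2.07 at 1, 3 and 5 dpi, -2.06 with the 7 dpi label and -1.62 in neurons. No neighbouring arrays were separated on it, and neurons were 2.08-fold higher than MEF, which fell under 2-fold after normexp (0.91 on the log2 scale), quantile normalization (0.47) and median centring (0.25). The dimmer probe read -4.47 in MEF, -4.15, -3.07 and -3.14 at 1, 3 and 5 dpi, -2.93 with the 7 dpi label and 0.01 in neurons. Over MEF it was 2.63-fold at 3 dpi, 2.51-fold at 5 dpi and 2.91-fold with the 7 dpi label, while neurons were 22.3-fold higher than MEF and 8.46-fold higher than 3 dpi, an array of their own scan. Both probes thus put neurons highest and MEF lowest, but the size of the difference was not settled by the array.

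**Figure D1:**
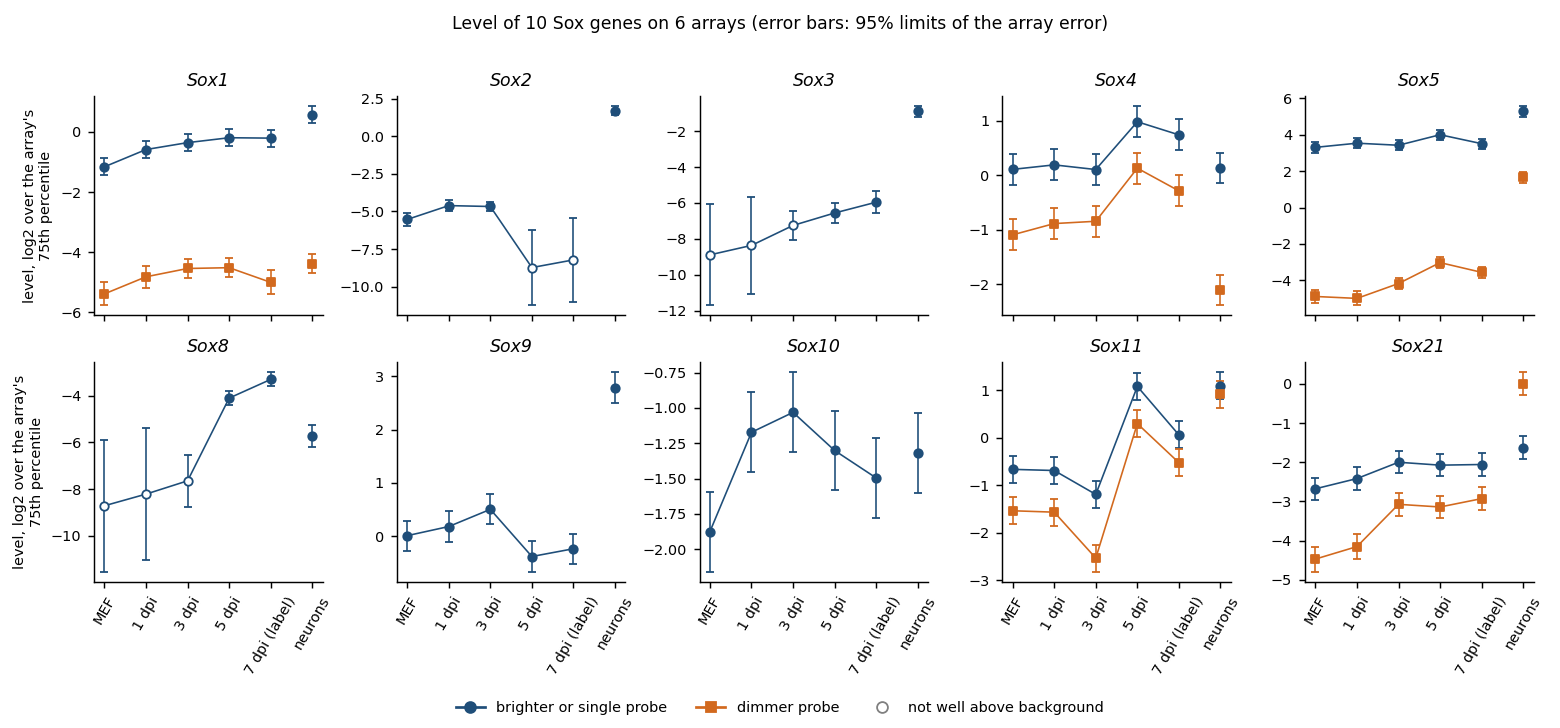
Level of each of 10 Sox genes (y, log2 of signal over the 75th percentile of the array, a separate scale for each gene) on the 6 arrays (x), with 1 array per group. Filled points were well above background and open points were not, circles are the brighter or single probe, squares the dimmer probe, bars the 95% limit of the array error, and lines join MEF and the dpi times. Sox2, Sox3 and Sox9 stood highest in neurons, Sox8 was above background at 5 dpi, with the 7 dpi label and in neurons, and Sox11 was lowest at 3 dpi.

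Sox11, the SOXC factor of immature neurons, had a level on its brighter probe of -0.66 in MEF, -0.69, -1.19 and 1.08 at 1, 3 and 5 dpi, 0.06 with the 7 dpi label and 1.09 in neurons. The level at 5 dpi was not separated from that of neurons, the array labelled 7 dpi lay between those and MEF, and 3 dpi was lowest. At 5 dpi Sox11 was 3.35-fold higher than in MEF (1.74 ± 0.20, log2 difference and array error) and 0.72 ± 0.20 higher with the 7 dpi label, which is under 2-fold. Neurons were 3.37-fold higher than MEF. The second Sox11 probe read -1.53 in MEF, -1.56, -2.53 and 0.30 at 1, 3 and 5 dpi, -0.52 with the 7 dpi label and 0.92 in neurons. It placed the arrays in the same order, but with neurons separated from 5 dpi, and with 5 dpi 3.56-fold higher than MEF and the array labelled 7 dpi 2.01-fold higher. Within the same scan, 5 dpi was 4.82-fold higher than 3 dpi on the brighter probe and 7.10-fold higher on the other. The step thus did not rest on the comparison across scans. The array labelled 7 dpi was then 2.03-fold lower than 5 dpi on the brighter probe and 1.77-fold lower on the other, so it lay at the 2-fold limit.

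Sox4, the other SOXC factor followed here, had levels of 0.11 in MEF, 0.19, 0.10 and 0.98 at 1, 3 and 5 dpi, 0.74 with the 7 dpi label and 0.13 in neurons on its brighter probe. The arrays of 5 dpi and labelled 7 dpi were not separated from each other and stood above the other 4, which were not separated among themselves. At 5 dpi it was 1.83-fold higher than in MEF and 1.84-fold higher than at 3 dpi. The dimmer probe read -1.09 in MEF, -0.89, -0.84 and 0.13 at 1, 3 and 5 dpi, -0.29 with the 7 dpi label and -2.10 in neurons. On it, 5 dpi was 2.33-fold higher than MEF. Its probes disagreed for neurons, which were 1.02-fold higher than MEF on the brighter probe and 2.02-fold lower on the dimmer one. Sox4 and Sox11 were both highest at 5 dpi among the dpi arrays, and they differed in neurons, where Sox11 was as high as at 5 dpi on its brighter probe and Sox4 was not.

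Sox5, the SOXD member, was the gene whose probes differed most. Its brighter probe read 3.30 in MEF, 3.53, 3.42 and 3.99 at 1, 3 and 5 dpi, 3.50 with the 7 dpi label and 5.27 in neurons. No dpi array differed 2-fold from MEF on it, and neurons were 3.91-fold higher. The dimmer probe read -4.88 in MEF, -4.99, -4.17 and -3.02 at 1, 3 and 5 dpi, -3.56 with the 7 dpi label and 1.65 in neurons. At 5 dpi that probe was 3.63-fold higher than in MEF, and it was 2.50-fold higher with the 7 dpi label, while neurons were 92.5-fold higher. Both probes ordered neurons first and 5 dpi second. Which Sox5 transcripts each probe detects was not tested.

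**Figure D2:**
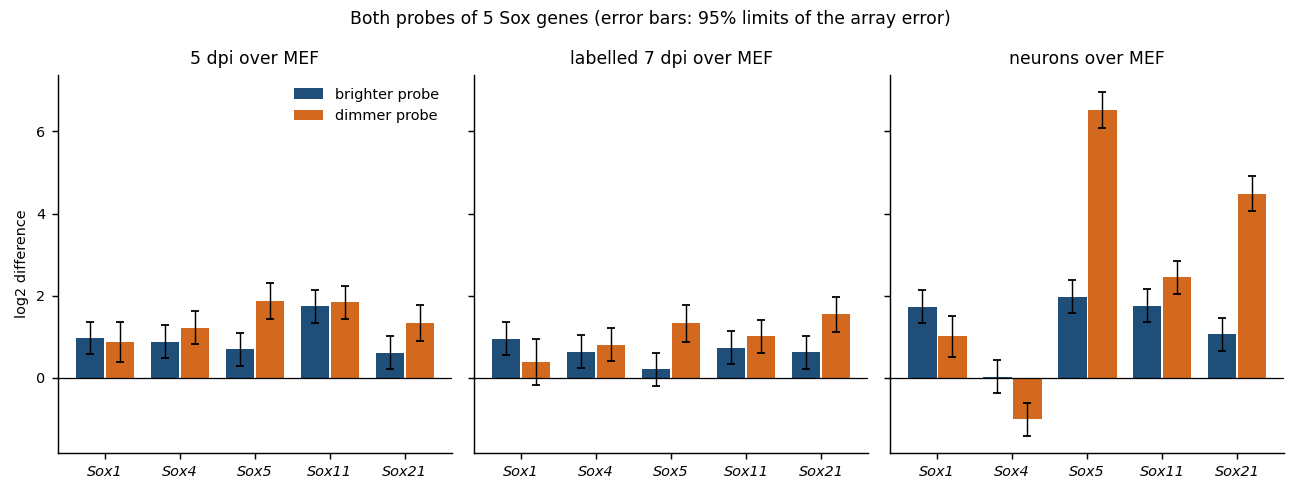
Log2 difference from MEF (y) on the brighter and the dimmer probe of the 5 Sox genes with 2 probes (x), for 5 dpi, the array labelled 7 dpi and neurons, with error bars of the 95% limit of the array error. Sox11 probes lie close together at 5 dpi (1.74 and 1.83), whereas in neurons Sox5 (1.97 and 6.53) and Sox21 (1.05 and 4.48) differ between probes and Sox4 is at 0.03 and -1.01.

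Sox8, a SOXE factor of neural crest, glia and testis, was more than 2-fold higher with the 7 dpi label than in neurons, as no other member was on its brighter probe. Its level was -8.71 in MEF, -8.21, -7.64 and -4.10 at 1, 3 and 5 dpi, -3.31 with the 7 dpi label and -5.72 in neurons. The probe was not well above background on the first 3 of these arrays, and the array labelled 7 dpi, 5 dpi and neurons followed one another with each step larger than the 95% limit of the array error. Against MEF, 5 dpi was higher by at least 5.65-fold and the array with the 7 dpi label by at least 9.83-fold. On the log2 scale these bounds were 2.50 and 3.30, against 1.48 and 1.94 after normexp and 1.68 and 2.50 after quantile normalization. Within the same scan, the bounds over 3 dpi were 6.71-fold for 5 dpi and 11.7-fold with the 7 dpi label. On the log2 scale they were 2.75 and 3.54. After normexp the 5 dpi bound was 1.49, and the bound with the 7 dpi label was also lower and still over 2-fold. Over neurons, 5 dpi was 1.62 higher on the log2 scale, and 0.79 after normexp. Neurons were at least 1.84-fold higher than MEF. The level remained low for the array, well under the 75th percentile everywhere.

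Sox9, the SOXE factor of cartilage, radial glia and astrocytes, was measured by 10 spots of 1 probe per array. It had levels of 0.01 in MEF, 0.18, 0.51 and -0.38 at 1, 3 and 5 dpi, -0.23 with the 7 dpi label and 2.79 in neurons. Neurons stood alone, and no neighbours among the other 5 arrays were separated, although 5 dpi was 1.84-fold lower than 3 dpi. The difference from MEF was within 2-fold at every dpi time, and neurons were 6.84-fold higher.

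Sox10, the SOXE factor of Schwann cells, melanocytes and oligodendrocytes, varied least, with levels of -1.88 in MEF, -1.17, -1.03 and -1.30 at 1, 3 and 5 dpi, -1.5 with the 7 dpi label and -1.32 in neurons. No neighbours in the order of levels were separated, and no array differed 2-fold from MEF. The largest difference from MEF was 0.84 ± 0.20 at 3 dpi (log2 difference and array error). Its only probe was well above background on all 6 arrays, neurons included.

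Counted over the family by the brighter probe, 0 of the 8 members with a value were 2-fold different from MEF at 1 dpi, where 5.37% of all 16813 genes with a value were 2-fold higher and 6.03% lower. At 3 dpi the count was also 0 of 8, with 16.3% of all genes higher and 9.83% lower. At 5 dpi Sox8 and Sox11 were higher and Sox2 was lower, 3 of 10, against a background of 17.9% higher and 8.28% lower. With the 7 dpi label 1 of 10 was 2-fold different, Sox8, which was higher, against 17% of all genes higher and 6.84% lower. In neurons 7 of 10 were higher (Sox1, Sox2, Sox3, Sox5, Sox9, Sox11 and Sox21) and 0 lower, against 30.3% and 16.1% of all genes. By the brighter probe, the counts on the dpi arrays are thus near or below the background share, and the count in neurons is above it. The dimmer probes gave more calls. At 5 dpi those of Sox4, Sox5, Sox11 and Sox21 were over 2-fold higher (1.22, 1.86, 1.83 and 1.33 on the log2 scale). That of Sox1 was not. With the 7 dpi label those of Sox5, Sox11 and Sox21 were (1.32, 1.01 and 1.54), and those of Sox1 and Sox4 were not. No share of all genes by the dimmer probe is given here. These comparisons share the MEF array. Within the same scan, neurons were 2-fold higher than 3 dpi for 6 of 10 members, against 22.6% of all genes higher and 16.3% lower. These were Sox2 (83.1-fold), Sox3 (at least 61.5-fold), Sox9 (4.86-fold), Sox11 (4.86-fold), Sox5 (3.61-fold) and Sox8 (at least 2.18-fold). The Sox8 call was lost after normexp (0.70 on the log2 scale), quantile normalization (0.37) and median centring (0.62). Sox1 (1.90-fold) and Sox21 (1.30-fold) were within 2-fold there on their brighter probes, so the neuron calls on those 2 probes were made across scans only, whereas the dimmer Sox21 probe exceeded 2-fold within the scan too. Against 3 dpi, the members 2-fold different at 5 dpi were again Sox8, Sox11 and Sox2, with 2 of 10 higher against 8.09% of all genes and 1 lower against 4.6%. With the 7 dpi label, where 11.3% of all genes were higher and 7% lower than at 3 dpi, they were Sox8, Sox11 (2.38-fold higher) and Sox2 (at least 2.79-fold lower, or -0.55 on the log2 scale after normexp).

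The median difference of the members with a value was 0.24 on the log2 scale at 1 dpi, 0.59 at 3 dpi, 0.65 at 5 dpi, 0.63 with the 7 dpi label and 1.74 in neurons. Over all genes with a value it was 0.07, 0.20, 0.20, 0.16 and 0.26 in the same order. Dim genes shifted more on the later arrays. For the dimmest genes, the lowest 25% by mean level, the median was 0.05 at 1 dpi, 0.57 at 3 dpi, 0.68 at 5 dpi, 0.87 with the 7 dpi label and 1.24 in neurons. Differences of a dim member such as the second Sox21 or Sox5 probe stand beside those values, and the part of this shift in them was not tested. The scale also mattered for neurons, because centring each array on its median moved the median of genes measured on both arrays to -0.71, against 0.09 with the 75th percentile. After that centring 4 of 10 members were 2-fold higher in neurons, and Sox1 (0.93), Sox11 (0.95) and Sox21 (0.25) were under 2-fold. The split of all genes moved likewise, since 65.3% of the genes called in neurons were higher with the 75th percentile, 46.1% after quantile normalization and 30.1% after median centring. For 3 dpi, 5 dpi and the array labelled 7 dpi that share was 62.3%, 68.4% and 71.3%, and after quantile normalization it was 42.7%, 45.8% and 48.4%, and after median centring 40.6%, 39.9% and 41.9%.

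**Figure D3:**
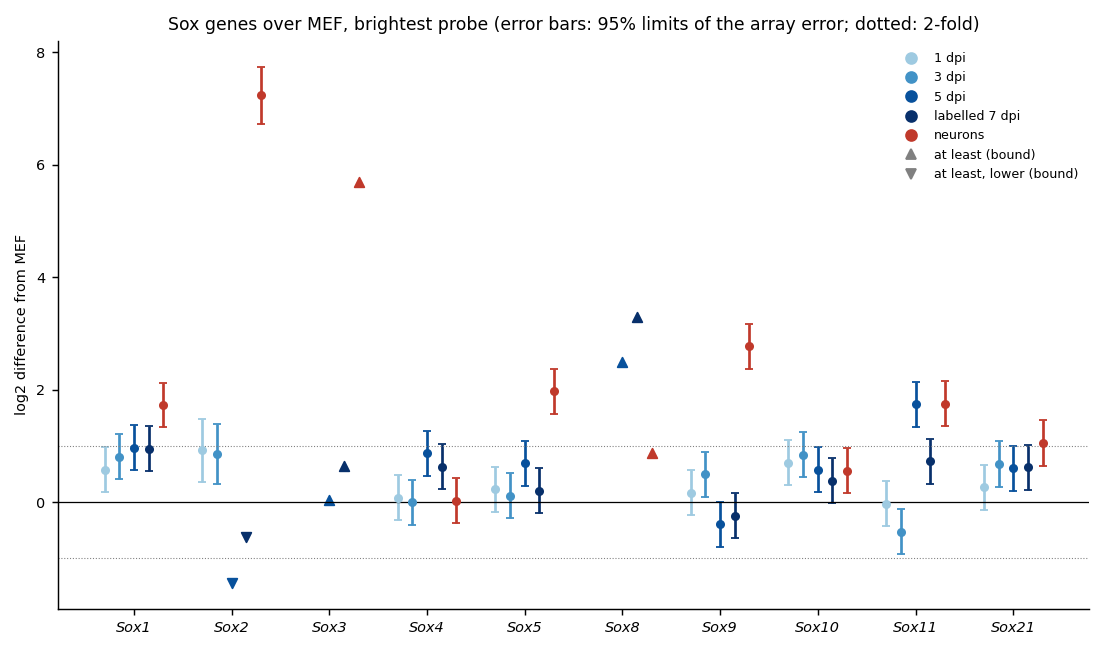
Log2 difference from MEF (y) of the brightest probe of each of 10 Sox genes (x) at 1, 3 and 5 dpi, with the 7 dpi label and in neurons, with error bars of the 95% limit of the array error and dotted lines at 2-fold. Triangles are bounds, where the probe was well above background on 1 of the arrays only, and pairs with neither above background are not drawn. Neurons stand apart for Sox2 (7.24), Sox3 (at least 5.70) and Sox9 (2.77), and 5 dpi (at least 2.50) and the array labelled 7 dpi (at least 3.30) stand apart for Sox8.

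The array labelled 7 dpi was set directly against neurons, to ask how far the family had come to the neuronal levels. Sox2 was at least 232-fold lower than in neurons, Sox3 33.1-fold lower, Sox9 8.11-fold lower, Sox5 3.40-fold lower and Sox11 2.04-fold lower, and Sox8 was 5.35-fold higher. The Sox11 value, -1.03 on the log2 scale, fell short of 2-fold after normexp (-0.99) and median centring (-0.67). On the same scale Sox3 was at -5.05 and -3.42 after normexp, the Sox2 bound at -7.86 and -5.92, and Sox8 at 2.42, 1.26 after normexp and 3.17 after quantile normalization. These were 5 members lower and 1 higher of 10, against 19.6% of all genes lower and 13.9% higher. Sox1, Sox4, Sox10 and Sox21 were within 2-fold on the brighter probe, at -0.77, 0.61, -0.18 and -0.43 on the log2 scale. The dimmer probes put Sox4 3.53-fold higher and Sox21 7.65-fold lower than neurons. The member median was -0.90, against -0.05 over all genes. Of the genes called in this comparison, 41.5% were higher with the 7 dpi label, 50.6% after quantile normalization and 60.3% after median centring.

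**Figure D4:**
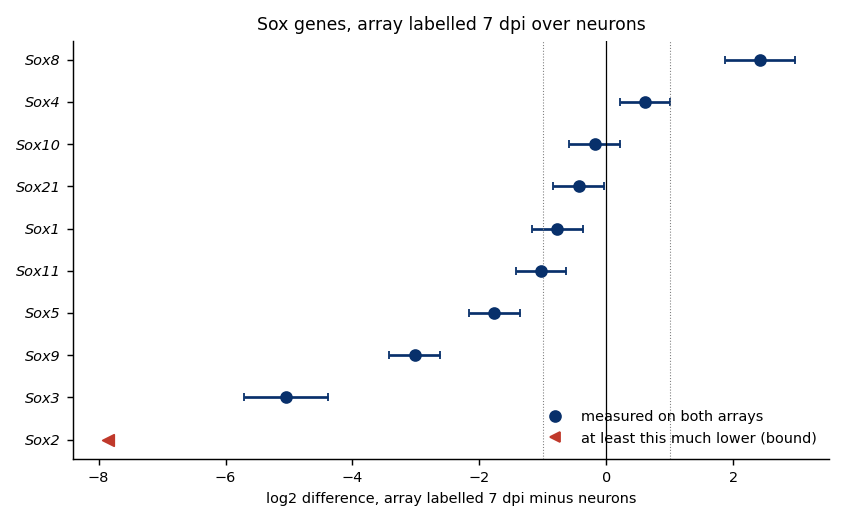
Log2 difference between the array labelled 7 dpi and neurons (x) for the brightest probe of each of 10 Sox genes (y), with error bars of the 95% limit of the array error and dotted lines at 2-fold. Sox8 (2.42) lies to the right, and Sox9 (-3.02), Sox3 (-5.05) and the Sox2 bound (-7.86) lie far to the left.

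Markers of the cells in each sample were read beside these values. Of 12 radial glia and astrocyte markers, 11 were 2-fold higher in neurons than in MEF and 0 were lower. In that comparison 30.3% of all genes were higher and 16.1% lower. Their summed signal, in units of the 75th percentile, was 7.34 in MEF, between 7.90 and 9.19 on the 4 dpi arrays and 175 in neurons. Gfap, the astrocyte filament, was 502-fold higher in neurons than in MEF, and Mlc1, an astrocyte membrane protein, was not well above background in MEF. Of 7 ependymal and choroid plexus markers, 6 were higher in neurons and 1 lower. Foxj1, the motile cilia factor, and Ttr, the choroid plexus transthyretin, were likewise not well above background in MEF and were above it by 10.46 and 10.76 on the log2 scale, as bounds, in neurons. The neuron array thus carried glial and ependymal transcripts beside the neuronal ones. Sox2, Sox3, Sox9 and Sox21, which such cells also express, were highest on it, and so were Sox1, Sox5 and Sox11. Neurons were not separated from the next array on the brighter Sox21 and Sox11 probes and the dimmer Sox1 probe. The part of glial and ependymal cells in the Sox levels was not tested. Summed signal of 13 neuron markers was 115 in neurons, 24.0 with the 7 dpi label and 4.08 in MEF.

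Fibroblast markers summed to 547 in MEF, 658, 456 and 609 at 1, 3 and 5 dpi, 669 with the 7 dpi label and 34.1 in neurons. All 12 were 2-fold lower in neurons than in MEF, and with the 7 dpi label 0 of 12 were. Macrophage markers were lower than in MEF on every other array for all 11 measured, with a summed signal of 340 in MEF, 58.2, 19.2 and 3.22 at 1, 3 and 5 dpi, 2.05 with the 7 dpi label and 2.63 in neurons. Macrophage transcripts were thus far more abundant on the MEF array, and the part of this in the Sox differences from MEF was not tested. Schwann cell and neural crest markers, relevant to Sox8 and Sox10, showed no common direction. At 5 dpi 4 of 12 were higher and 4 lower than in MEF, against 17.9% and 8.28% of all genes. With the 7 dpi label 3 of 11 were higher and 5 lower, against 17% and 6.84%. Their summed signal was 1.37 at 5 dpi, 1.75 with the 7 dpi label and 1.55 in MEF. In neurons, 6 of 12 oligodendrocyte lineage markers were higher than in MEF and 1 lower, 6 of 8 melanocyte markers were higher and 1 lower, and 2 of 8 endothelial markers were higher and 1 lower. With the 7 dpi label these counts were 2 higher and 2 lower of 10 for oligodendrocyte, 2 and 0 of 7 for melanocyte and 1 and 2 of 6 for endothelial markers. The shares of all genes in neurons were 30.3% higher and 16.1% lower than in MEF.

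Genes listed as dependent on SOXC factors were looked at beside Sox4 and Sox11. Not all are specific to neurons, since the list holds Tead2, and Hes5, which is also counted among the radial glia and astrocyte markers. Tubb3, Dcx, Map2 and Stmn2 are also among the 13 neuron markers, so the counts of this list and of those markers share genes. Among all genes, as given above, 16.3% were 2-fold higher than in MEF at 3 dpi, 17.9% at 5 dpi, 17% with the 7 dpi label and 30.3% in neurons. Of the 12 listed genes, 4 were 2-fold higher than in MEF at 3 dpi, 6 at 5 dpi, 8 with the 7 dpi label and 11 in neurons. Hes5 was among those 11. The remaining gene, Tead2, was lower in neurons, with a level of 1.11 against 2.87 in MEF. At 5 dpi Stmn2, a growth cone protein, was 6.58-fold higher, Dcx, the microtubule protein of migrating neurons, 3.63-fold and Tubb3, neuronal tubulin, 6.0-fold. With the 7 dpi label these were 77.0-fold higher for Stmn2, 34.4-fold for Dcx and 9.93-fold for Tubb3. Prox1, a transcription factor of early neurons, had bounds of 4.37-fold at 5 dpi and 3.07-fold with the 7 dpi label. Stmn2 and Tubb3 were already 9.45-fold and 3.15-fold higher at 3 dpi, and Dcx was not, at -5.53 against -5.28 in MEF. Sox11 was then 1.44-fold lower than in MEF on its brighter probe and 1.99-fold lower on the other. Sox4 was within 1.19-fold of MEF on either probe. The list median was 0.46 at 3 dpi, 0.91 at 5 dpi, 1.64 with the 7 dpi label and 3.52 in neurons, on the log2 scale. From 3 to 5 dpi 2 of the 12 listed genes were 2-fold higher and 0 lower, against 8.09% and 4.6% of all genes. The largest steps were those of Dcx, to a level of -3.42, and Prox1, from -6.00 to -4.48. Sox11 was lower with the 7 dpi label than at 5 dpi. Stmn2 and Dcx were higher there, and Prox1 was lower, at -4.98. The part of Sox4 and Sox11 in the levels of these genes was not tested.

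Progenitor genes bound by SOXB1 factors included several that were higher than in MEF at 5 dpi. Sox2 was not detected on that array. Sox1 stood 1.95-fold over MEF there on its brighter probe, and Sox3 was just above background. At 5 dpi 5 of the 12 with a value were 2-fold higher than in MEF and 0 lower, against 17.9% and 8.28% of all genes. In neurons 7 of 13 were higher and 2 lower, against 30.3% and 16.1%. Fabp7, the radial glia lipid carrier, stood 34.0-fold over MEF at 5 dpi and 7.66-fold with the 7 dpi label. Nes, the progenitor filament nestin, was 6.30-fold higher at 5 dpi, Notch1 3.76-fold and Ccnd1, cyclin D1, 7.99-fold. Ccnd1 was already 6.14-fold higher at 1 dpi. The median of this list was 0.48 at 5 dpi and 2.02 in neurons. The part of any SOXB1 factor in the levels of these genes was not tested.

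Of the POU and PAX partners of the SOX factors, 2 of 12 were higher than in MEF and 2 lower at 5 dpi, where 17.9% of all genes were higher and 8.28% lower. In neurons 6 of 13 were higher and 2 lower, against 30.3% and 16.1% of all genes. Pax6, a partner of Sox2 in eye and forebrain, was not well above background in MEF or on any of the 4 dpi arrays and was at least 21.8-fold higher in neurons. Pou3f2 (Brn2), another Sox2 partner, was higher than MEF by at least 7.77-fold in neurons and by at least 4.19-fold at 3 dpi, and it was not well above background with the 7 dpi label. Pax7, a neural crest and muscle factor, was 4.15-fold over MEF at 5 dpi and 7.13-fold in neurons. The list median was 0.28 at 5 dpi, 0.04 with the 7 dpi label and 0.87 in neurons.

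Cartilage genes controlled by Sox9 showed no common direction on the dpi arrays. Of all genes, 16.3% were 2-fold higher than in MEF and 9.83% lower at 3 dpi, and 17.9% and 8.28% at 5 dpi. With the 7 dpi label these shares were 17% and 6.84%, and in neurons 30.3% and 16.1%. At 3 dpi 3 of 15 were higher and 2 lower than in MEF, with a list median of 0.12. At 5 dpi 3 of 16 were higher and 3 lower than in MEF, and with the 7 dpi label 4 of 14 were higher and 3 lower, with list medians of -0.14 and 0.37. In neurons 8 of 17 were higher and 4 lower, with a median of 0.48. Col2a1, the cartilage collagen, peaked on a single array, with levels of -3.03 in MEF, -4.82, 1.89 and -3.45 at 1, 3 and 5 dpi, -5.36 with the 7 dpi label and -1.88 in neurons. At 3 dpi it was 30.2-fold higher than in MEF. That array also had the highest Sox9 level of the dpi arrays, 1.41-fold over MEF, but not separated from 1 dpi. Acan, aggrecan, stood 6.81-fold over MEF at 3 dpi and 5.93-fold at 5 dpi, when Sox9 was 1.31-fold lower than in MEF. The summed signal of 10 chondrocyte markers was 0.773 in MEF, 0.833, 5.28 and 1.59 at 1, 3 and 5 dpi, 1.19 with the 7 dpi label and 3.92 in neurons. In neurons 7 of these 10 were higher than in MEF and 1 lower, with a median of 1.84. Col2a1 and Acan (levels of 1.89 and 0.09) made up most of the 3 dpi sum, and 3 of the 8 markers with a value were higher and 1 lower there, with a median of 0.27. Of Sox10 target genes, 4 of 21 were higher and 8 lower at 5 dpi, and 4 of 20 were higher and 9 lower with the 7 dpi label, with medians of -0.40 and -0.83. In neurons 14 of 21 were higher and 4 lower, with a median of 1.28. Ret, the GDNF receptor, was 22.5-fold higher with the 7 dpi label, while Mbp, myelin basic protein, was 3.47-fold lower and Ednrb, an endothelin receptor, 5.18-fold lower.

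The other 10 Sox genes on the array gave 3 of 10 higher than MEF at 5 dpi (Sox7, Sox14 and Sry), 2 of 8 with the 7 dpi label (Sox14 and Sox17) and 3 of 8 in neurons (Sox6, Sox12 and Sox17), with 0 lower in each. Of all genes, 17.9% were higher at 5 dpi, 17% with the 7 dpi label and 30.3% in neurons, so these counts are near the share of all genes. Sox6, the SOXD partner of Sox5, was the widest of them, at -0.15 in neurons and -4.68 in MEF, a 23.1-fold difference, while it was within 2-fold of MEF on the dpi arrays. Sox12, the third SOXC gene, was 2.50-fold higher in neurons than in MEF and within 2-fold at every dpi time. Sox7, a SOXF factor of endothelium, was 4.11-fold higher at 1 dpi and not well above background with the 7 dpi label. Sox13, another SOXD gene, ranged over 0.38 on the log2 scale across the 6 arrays. At 3 dpi 3 of 8 were higher than MEF (Sox14, Sox17 and Sry) and 0 lower, against 16.3% and 9.83% of all genes. The median difference of these other Sox genes from MEF was 0.29 at 1 dpi, 0.92 at 3 dpi and 0.69 at 5 dpi. It was 0.47 with the 7 dpi label and 0.78 in neurons, so it was largest at 3 dpi. Of 9 non-coding RNAs from Sox loci, 2 had a probe. Sox5os3, from the Sox5 locus, was at least 2.57-fold higher than in MEF at 5 dpi and at least 4.96-fold in neurons, and Sox1ot, from the Sox1 locus, was within 2-fold of MEF on every array.

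**Figure D5:**
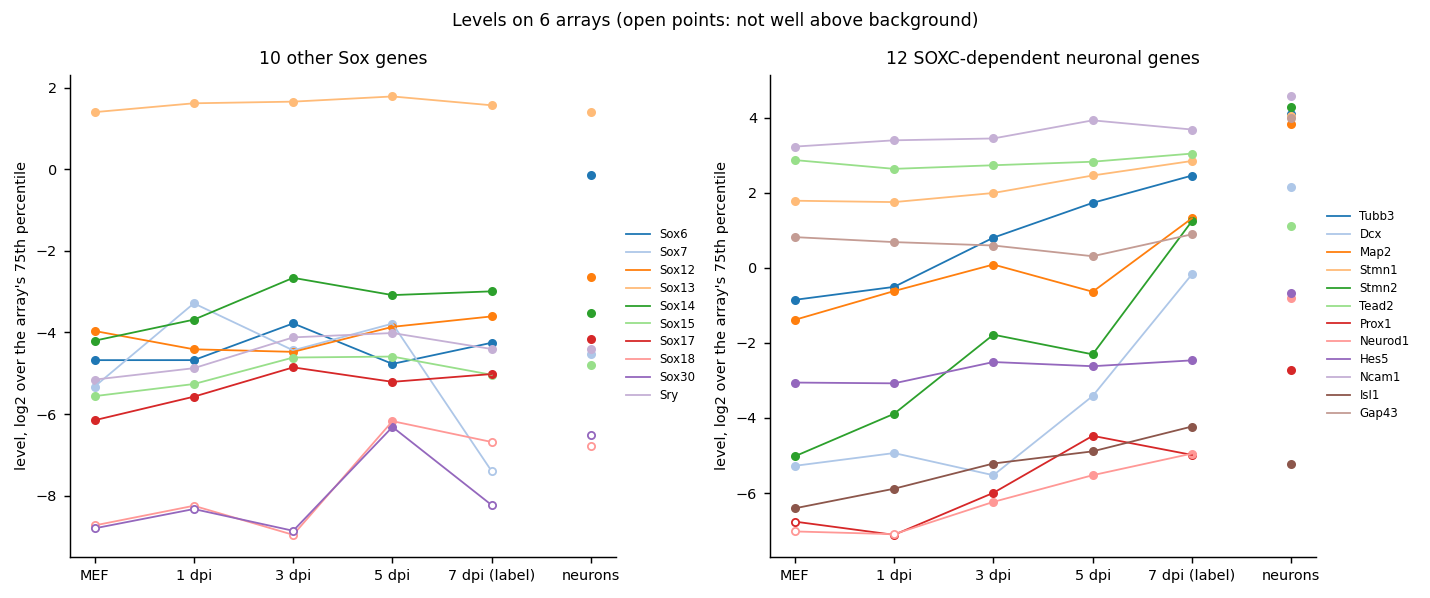
Levels (y, log2 of signal over the 75th percentile of the array) on the 6 arrays (x). The left panel holds 10 other Sox genes and the right panel 12 genes listed as dependent on SOXC factors. Open points were not well above background, and lines join MEF and the dpi times. Sox6 is highest in neurons (-0.15), and Stmn2, Dcx and Map2 are higher with the 7 dpi label than at 5 dpi.

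Among 5276 genes that were compared by shape, those with profiles most like Sox9 and Sox11 were found by the root mean square difference between mean-centred log2 profiles over the 6 arrays. Tctn2 (0.122), Slc7a4 (0.146) and Pgap4 (0.154) were nearest to Sox9. Nearest to Sox11 were Ddr1 (0.164), Mmd (0.271) and Cage1 (0.294). For Sox2 no neighbours are given, because its probe gave only a bound at 5 dpi and with the 7 dpi label. The profile of Ddr1, a collagen receptor kinase, was 1.64 in MEF, 1.76, 1.27 and 3.15 at 1, 3 and 5 dpi, 2.65 with the 7 dpi label and 3.53 in neurons. Like Sox11, it was lowest at 3 dpi and higher at 5 dpi than with the 7 dpi label. This likeness is a description over 6 arrays.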

How the data were processed

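Each of 6 RNA samples was hybridised to its own Agilent mouse array. The authors' deposited scanner files hold Cy3 spot intensity values. Per the submitters' processing notes the software was Agilent Feature Extraction, version 11.0.1.1, and per the file headers the processed intensity is background-corrected. The series table that the authors deposited is in log2 units, and its values differed by at most 0.00534 from those computed here over the Sox probes. How it was made is not stated. From the processed intensity, log2 was taken and each array's 75th percentile subtracted. Spots marked as outliers were left out and the spots of a probe averaged. Accessions named 27222 of 39409 probes (69.1%), and the probe with the highest mean stood for a gene. The signals of the neuron file are rounded to 3 digits.

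Differences of at least 2-fold were counted, as bounds where 1 array was not well above background, and neighbours within the 95% limit of the array error were called not separated. The members, the gene lists (other Sox genes, SOX partners, SOXB1, SOXC, SOX9 and SOX10 targets, non-coding RNAs of Sox loci, and cell type markers) and the rules were chosen with earlier results of these data known. Named are the 10 members, up to 4 list genes with the largest difference per comparison with MEF, markers that state a list, and the 3 genes nearest in profile to each member above background on at least 4 arrays and ranging over at least 2 on the log2 scale. Genes whose symbols look predicted were left out of the last. Not every gene named by this rule is reported. Alternatives were normexp (offset 50, on median signals), quantile normalization, median centring, the authors' table, other filters, the mean over probes, a 4-fold threshold, 3 dpi in place of MEF and, chosen after seeing the data, the dimmer probe. Python 3.11.15 with pandas 2.3.3, R 4.3.3 and limma 3.58.1 were used, and the calling was tested on simulated data.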

Additional observations from a re-analysis of the deposited data

How the results depend on the processing

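No alternative turned the direction of a Sox gene called 2-fold different. Of 561 recomputed single-gene differences, 496 stayed within the 95% limit of the array error and 65 moved further, 30 of them under median centring, 17 under the mean over probes, 11 under normexp, 7 under quantile normalization and 0 with the authors' table. The number of members 2-fold different from MEF depended on several choices. The counts over all genes moved too. At 5 dpi 3286 genes were higher and 1517 lower. These were 1700 and 1214 after normexp, 1605 and 1900 after quantile normalization, and 1765 and 2654 after median centring. In neurons they were 5678 and 3014, and in the same order 3847 and 2738, 3264 and 3818, and 2953 and 6845. The member counts below have no such share beside them and describe the settings, not the family. At 3 dpi it was 0, and became 2 with no filter on dim probes, 1 with the mean over probes and 1 with the dimmer probe. At 5 dpi it was 3, and became 2 after normexp, with Sox2 lost, 1 when both arrays had to be above background, 5 with the mean over probes, 1 at a 4-fold threshold and 6 with the dimmer probe. With the 7 dpi label it was 1, and became 2 after quantile normalization, 2 after median centring, 0 when both arrays had to be above background, 3 with no filter, 2 with the mean over probes, 3 against the 3 dpi array of the same scan and 4 with the dimmer probe. In neurons it was 7, and became 6 after normexp and 6 after quantile normalization, with Sox21 lost in each, 4 after median centring, 3 at 4-fold and 6 against 3 dpi. For the array labelled 7 dpi over neurons it was 6, and became 5 after normexp and 5 after median centring, with Sox11 lost in each. That count and the one at 1 dpi stayed within 1.5 times under every alternative run. The step of Sox11 between 5 dpi and the 7 dpi label, -1.02 on the log2 scale, fell just short of 2-fold after normexp and was -0.92 with the mean over probes. Calls of Sox2, Sox3 and Sox8 rest on 1 probe near background on some arrays, where the signal gives a bound only. No paired analysis was possible because each group has 1 array. With 1 array per group, culture, scan and label cannot be told apart from condition.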
